A study of Mus musculus with 30 samples.

Results

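The genes described here are 41 genes of DNA replication and mitosis, out of 28586 genes listed in the count tables of the series. They were picked by symbol for their roles in the cell cycle, with earlier results of these data known. They fall into 18 replication genes and 23 mitosis genes. The replication genes comprise 10 that license and open replication origins (*Mcm2*, *Mcm3*, *Mcm4*, *Mcm5*, *Mcm6*, *Mcm7*, *Cdc6*, *Cdt1*, *Gins1* and *Gins2*) and 8 that serve DNA synthesis and new chromatin (*Pcna*, *Rrm1*, *Rrm2*, *Tyms*, *Chaf1a*, *Chaf1b*, *Uhrf1* and *Hells*). The mitosis genes comprise 12 cyclins, kinases and checkpoint or degradation factors (*Ccna2*, *Ccnb1*, *Ccnb2*, *Cdk1*, *Bub1*, *Bub1b*, *Aurka*, *Aurkb*, *Plk1*, *Birc5*, *Ube2c* and *Cdc20*) and 11 spindle and chromosome factors (*Mki67*, *Top2a*, *Cenpe*, *Cenpf*, *Kif11*, *Kif20a*, *Kif23*, *Tpx2*, *Nusap1*, *Prc1* and *Hmmr*).

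Cells that enter the cycle first load the ring-shaped MCM helicase onto origins with the help of CDC6 and CDT1. The helicase is then activated with the GINS complex, and DNA is copied at forks held by the sliding clamp PCNA, while chromatin assembly factor 1 places histones on the new strands. Cyclin B with its kinase CDK1, the Aurora and Polo kinases and the anaphase-promoting complex then drive division, and kinesins and their partners build the spindle. Transcripts of the replication genes are known to rise before and during S phase through E2F factors, and those of the mitosis genes in G2 and M phase through the CHR element and CCAAT boxes bound by NF-Y. In the adult muscle layer of the bowel most resident cells rest outside the cycle, and macrophages, recruited leukocytes, fibroblasts and glia can divide after injury.

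The study sequenced RNA of the small bowel muscularis externa (*ME*), the muscle layer with its nerve plexus, from male mice aged 10 to 12 weeks that were naïve or were sampled at 3, 24 or 72 h from intestinal manipulation (IM), a surgical model of postoperative ileus. *RiboTag* libraries hold mRNA precipitated with HA-tagged RPL22 ribosomes from cells with a Cre recombinase, and *ME* libraries hold total RNA of the same layer. All *RiboTag* mice and the *ME* mice of IM24h and IM72h came from B6 Tg(Sox10-icre/ERT2)388Wdr/J crossed to B6N.129 Rpl22tm1.1Psam/J, whereas the *ME* mice of the naïve and IM3h groups came from B6.Cg-Tg73.12Mvs/J(Gfap-cre) crossed to the same *Rpl22* line, so that every group shares the *Rpl22* allele and in *ME* RNA the Cre line and the later time points cannot be told apart. The inducible Cre was switched on with tamoxifen before surgery, and *Sox10* marks enteric glia. The tables hold 3 naïve, 4 IM3h, 4 IM24h and 4 IM72h *RiboTag* libraries and 3 naïve, 3 IM3h, 4 IM24h and 4 IM72h *ME* libraries, which is 1 naïve *RiboTag* library fewer than the labels list. Nothing ties a library to an animal beyond its group, so p-values measure the spread between these libraries.

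*ME* library totals lay between 6603170 and 12866062 counts and *RiboTag* totals between 3010306 and 7899493. A single feature, AY036118, took 2.02% to 14.0% of the counts of naïve and IM3h *RiboTag* libraries, 22.2% to 59.2% at IM24h and 58.0% to 80.1% at IM72h, which left 663808 to 1619377 other counts at IM72h. In the *ME* it took 16.1% to 33.5% in naïve and 24.1% to 25.1% in IM3h libraries, against 1.33% to 6.50% at IM24h and 2.34% to 3.69% at IM72h. The defining glial gene *Sox10* had 3826, 9191 and 4838 counts in naïve *RiboTag* libraries and 5206, 4239, 2384 and 3034 at IM3h. At IM24h it had 3336, 93, 121 and 1366 counts, with the low values in libraries 2 and 3, and at IM72h 25, 6, 0 and 2. The *RiboTag* libraries of IM72h and libraries 2 and 3 of IM24h therefore go against their label as glial RNA by this gene. The summed level of the 8 glial genes listed was 1577 to 1925 CPM (counts scaled to library size) in naïve mice and 1340 to 2872 at IM3h. It was 773 to 933 CPM at IM24h and 159 to 1435 at IM72h. By this sum all 4 libraries of IM24h lay close together and below the naïve ones.

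The promoters are shown first because E2F and CHR letters were found at different shares in the replication and the mitosis members. RefSeq promoter windows on GRCm38.p6, which run from 250 bases before to 50 bases after the annotated start, matched 34 of the 41 members, 15 replication and 19 mitosis genes, and *Mcm4*, *Gins1*, *Gins2*, *Ccna2*, *Aurkb*, *Kif20a* and *Tpx2* had no entry. The E2F letters searched were TTCCCGC, followed by TTGGCGC, next TTCGCGC and finally TTGCCGC, the CHR letters were TTTGAA and the NF-Y box was CCAAT, each on both strands, and a CCAAT can share letters with an E2F match. Given below are 250 bases before and 30 bases after the start of *Cdt1*, *Hells*, *Ccnb2* and *Top2a*, the member with the smallest p in each of the 4 role groups at IM24h in the *ME*, and of *Mcm3*, added after its values were seen. Capitals mark the matches.
Cdt1, chr8:122567765-122568044, plus strand: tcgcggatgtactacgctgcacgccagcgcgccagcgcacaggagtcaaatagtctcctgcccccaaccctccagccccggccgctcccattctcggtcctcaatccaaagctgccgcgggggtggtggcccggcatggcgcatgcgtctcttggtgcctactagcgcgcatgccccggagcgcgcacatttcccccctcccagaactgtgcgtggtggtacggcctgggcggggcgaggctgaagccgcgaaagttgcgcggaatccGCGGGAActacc
Hells, chr19:38930740-38931019, plus strand: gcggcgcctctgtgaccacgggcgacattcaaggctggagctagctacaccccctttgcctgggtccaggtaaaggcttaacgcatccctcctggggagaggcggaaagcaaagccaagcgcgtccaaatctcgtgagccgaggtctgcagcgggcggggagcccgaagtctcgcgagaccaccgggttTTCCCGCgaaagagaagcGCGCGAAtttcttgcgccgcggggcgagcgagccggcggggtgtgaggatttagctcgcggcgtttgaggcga
Mcm3, chr1:20820283-20820562, minus strand: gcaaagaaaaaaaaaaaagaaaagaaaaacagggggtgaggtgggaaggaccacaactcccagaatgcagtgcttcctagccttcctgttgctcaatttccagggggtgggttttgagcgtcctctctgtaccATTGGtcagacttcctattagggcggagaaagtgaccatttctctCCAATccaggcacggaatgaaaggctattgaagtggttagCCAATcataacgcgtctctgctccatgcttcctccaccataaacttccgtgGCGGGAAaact
Ccnb2, chr9:70421525-70421804, minus strand: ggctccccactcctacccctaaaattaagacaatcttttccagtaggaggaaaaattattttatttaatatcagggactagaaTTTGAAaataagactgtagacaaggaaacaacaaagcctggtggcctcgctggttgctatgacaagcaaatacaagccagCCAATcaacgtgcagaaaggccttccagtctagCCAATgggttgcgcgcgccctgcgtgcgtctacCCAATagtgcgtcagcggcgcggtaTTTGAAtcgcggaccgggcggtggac
Top2a, chr11:99024160-99024439, minus strand: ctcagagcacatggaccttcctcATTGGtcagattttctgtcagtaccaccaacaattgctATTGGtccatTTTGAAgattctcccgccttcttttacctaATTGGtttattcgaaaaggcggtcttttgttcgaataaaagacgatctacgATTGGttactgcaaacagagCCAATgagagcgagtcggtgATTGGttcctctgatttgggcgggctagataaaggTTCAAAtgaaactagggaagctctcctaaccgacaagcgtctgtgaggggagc

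*Cdt1* held an E2F match 19 bases after its start and a further one at 34, past the printed stretch. *Hells* held E2F matches 61 and 43 bases before its start. *Mcm3* held one 20 bases after its start, a pair that share letters at 40 and 43, and 3 NF-Y boxes upstream. *Ccnb2* held CHR letters 167 bases before and 5 bases after its start, with 3 NF-Y boxes at 87, 54 and 21 bases before it. *Top2a* held CHR letters at 179 and 23 bases before its start and 6 NF-Y boxes between 227 and 58 bases before it.

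Over all matched members, E2F letters were present in 12 of 15 replication promoters (80%) and 4 of 19 mitosis promoters (21.1%), against 9.69% of all 27025 windows of 300 bases. CHR letters were present in 1 of 15 replication promoters (6.67%), that of *Mcm2*, and in 14 of 19 mitosis promoters (73.7%), against 18.1% of all windows. NF-Y boxes were common to both, with 10 of 15 (66.7%) and 17 of 19 (89.5%) against 37.9%. The replication promoters without E2F letters were those of *Mcm2*, *Pcna* and *Tyms*, and the mitosis promoters without CHR letters were those of *Ccnb1*, *Bub1*, *Birc5*, *Cenpe* and *Nusap1*. A match is a run of letters and not a measured binding site.

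**Figure D1:**
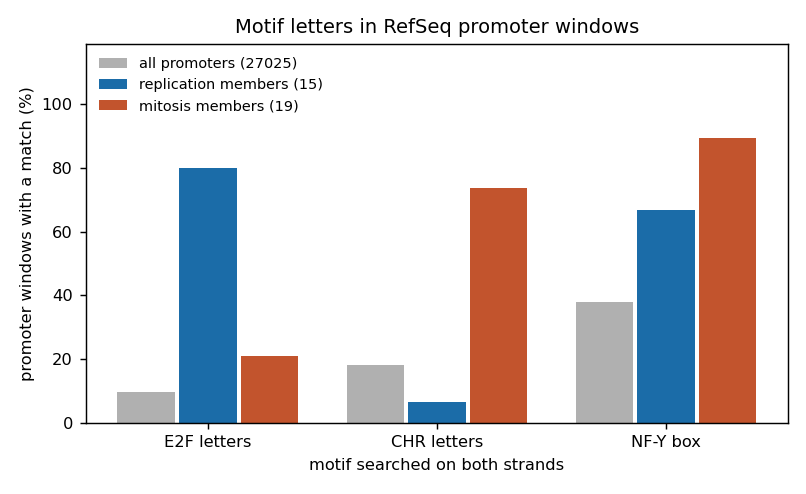
Share of RefSeq promoter windows (%, y axis) with E2F letters, CHR letters or an NF-Y box (x axis) among all 27025 windows, 15 replication members and 19 mitosis members. E2F letters stand in 80% of replication and 21.1% of mitosis members, CHR letters in 6.67% and 73.7%.

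In total *ME* RNA most replication genes had risen by 24 h after IM and few rose further, whereas most mitosis genes stood far higher at 72 h than at 24 h. At IM24h 14 of 18 replication and 11 of 22 tested mitosis genes had risen against naïve mice (edgeR, adjusted p under 0.05), at IM72h 17 of 18 and 22 of 23, and none had fallen in either comparison. Between IM24h and IM72h a further rise was called for 3 of 18 replication genes and for 21 of 23 mitosis genes. These counts stand against 15.6% of 16328 genes tested that rose at IM24h, 29.3% of 16592 at IM72h and 18.6% of 16281 from IM24h to IM72h. In bulk RNA such a rise may come from more cells of a cycling type or from more of the transcript per cell, and these cannot be told apart. AY036118 took a smaller share of *ME* counts at these times: under scaling by library totals the median log2 change of all genes was 0.66 at IM24h and 0.62 at IM72h, in place of 0.021 and 0.023, and 31 and 40 members were called, and with AY036118 and the ribosomal RNA genes left out the numbers were 25 and 39, as with all genes.

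The summed level of the replication genes was 97.4, 86.2 and 87.4 CPM in naïve *ME* libraries, 137, 168 and 148 at IM3h, 379, 268, 336 and 277 at IM24h, then 398, 396, 323 and 357 at IM72h. The summed level of the mitosis genes was 79.9, 38.8 and 62.4 CPM, then 78.3, 74.9 and 68.0, then 184, 97.8, 158 and 240, and at IM72h 998, 924, 765 and 820. Replication sums at IM24h and IM72h overlapped and both lay above all earlier libraries, while the 4 mitosis sums at IM72h lay above every other library. The ratio of the mitosis sum to the replication sum was 0.451 to 0.820 in naïve mice, 0.446 to 0.573 at IM3h, 0.364 to 0.868 at IM24h and 2.29 to 2.504 at IM72h. Since 3′ end counts per gene are not set per length, this ratio is compared between groups only. All 23 mitosis genes had their highest group mean at IM72h, and 13 of the 18 replication genes did, with *Mcm4*, *Cdc6*, *Gins2*, *Pcna* and *Hells* highest at IM24h.

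**Figure D2:**
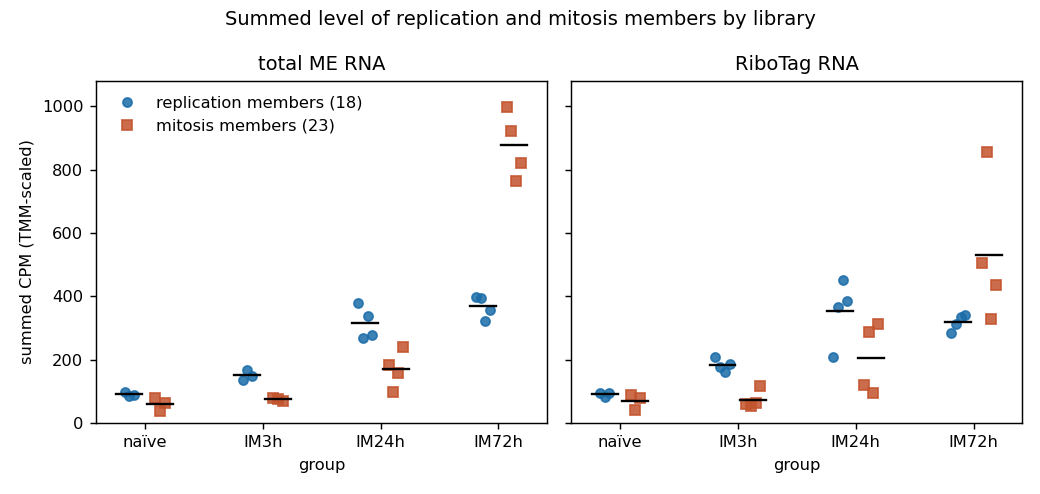
Summed level of 18 replication and 23 mitosis members (TMM-scaled CPM, y axis) in each library of the 4 groups (x axis), total *ME* RNA left and *RiboTag* RNA right, with bars at group means. In the *ME* the mitosis sums at IM72h (765 to 998) lie above all other libraries, and replication sums at IM24h (268 to 379) and IM72h (323 to 398) overlap.

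Among the origin and helicase genes of the *ME*, 8 of 10 had risen at IM24h and 9 of 10 at IM72h, with a median log2 change of 2.25 and 2.34, and none was called between the 2 times. *Cdt1*, which loads the MCM helicase, was already up at IM3h: its level was 1.92, 2.28 and 2.40 CPM in naïve libraries, 15.7, 21.4 and 18.05 at IM3h, 21.2, 16.7, 19.9 and 15.8 at IM24h, then 23.1, 25.3, 20.2 and 19.995 at IM72h. Every library after IM lay far above the naïve ones and the 3 time points differed little. Its log2 change was 3.13 (SE 0.24, edgeR adjusted p = 9.77e-06) at IM3h, 3.04 (SE 0.27, adjusted p = 9.84e-05) at IM24h and 3.23 (SE 0.20, adjusted p = 6.74e-07) at IM72h. *Mcm3*, a subunit of the helicase ring, stood at 4.93, 3.32 and 2.52 CPM in naïve libraries, 5.75, 8.95 and 4.95 at IM3h, 36.6, 28.4, 30.4 and 14.3 at IM24h, then 29.6, 33.5, 25.7 and 35.1 at IM72h. Its IM3h libraries lay just above the naïve ones (log2 change 0.93, adjusted p = 0.0730 in edgeR), and those of the later times lay well above both. The changes at IM24h and IM72h were 2.90 (SE 0.37, edgeR adjusted p = 0.000446) and 2.996 (SE 0.23, adjusted p = 2.31e-06). The ring subunits *Mcm2* and *Mcm5* had log2 changes of 2.47 and 2.94 at IM24h, which were 2.87 and 3.19 at the later time. The licensing factor *Cdc6* had 3.01 and 2.82. *Gins2* was the exception at IM72h, with 13.1, 18.1 and 12.7 CPM in naïve libraries and 15.7 to 19.1 at IM72h, a log2 change of 0.15 (edgeR adjusted p = 0.480).

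Of the 8 synthesis and chromatin genes 6 had risen at IM24h and all 8 at IM72h, with median log2 changes of 1.83 and 2.14. *Pcna* rose by 1.41 at IM3h (SE 0.18, edgeR adjusted p = 0.000297), from 17.8, 12.3 and 20.2 CPM to 38.3, 50.1 and 39.9 CPM, and its 4 libraries at IM24h held 80.6, 47.0, 56.7 and 51.4 CPM. *Hells*, a chromatin remodeller of the DNA methylation machinery, had 1.92, 1.04 and 1.92 CPM in naïve libraries, 3.83, 3.46 and 2.24 at IM3h, 23.4, 14.5, 18.1 and 12.3 at IM24h, then 16.0, 14.3, 10.8 and 8.48 at IM72h. It was highest at IM24h, with a log2 change of 3.32 (SE 0.36, edgeR adjusted p = 0.000223), and the groups of IM24h and IM72h overlapped. *Chaf1a*, the large subunit of chromatin assembly factor 1, was low throughout, at 1.80, 0.623 and 0.720 CPM in naïve libraries and 3.83, 1.59 and 4.31 at IM3h, then 2.07, 4.51, 5.71 and 3.85, then 7.31, 4.63, 3.83 and 3.77. Its calls at IM3h (log2 change 1.64, adjusted p = 0.0493) and IM24h (1.88, adjusted p = 0.0446, both edgeR) sat at the threshold, and that at IM72h was 2.04 (SE 0.43, adjusted p = 0.00199). Each of the 3 calls held in 2 of 6, 2 of 7 and 7 of 7 fits that left out a library.

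The 3 replication genes that rose again from IM24h to IM72h were *Rrm1* and *Rrm2*, the subunits of ribonucleotide reductase, and *Uhrf1*, which recruits the maintenance DNA methyltransferase to new DNA. *Rrm2* went from 12.99, 5.71, 10.2 and 10.3 CPM at IM24h to 38.0, 30.3, 26.0 and 31.1 at IM72h, without overlap, from 0.601, 0 and 1.56 in naïve mice. This step was 1.59 (SE 0.24, edgeR adjusted p = 0.000519), and those of *Uhrf1* and *Rrm1* were 1.03 (adjusted p = 0.0104) and 0.53 (adjusted p = 0.0199).

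The mitotic kinases and checkpoint genes numbered 6 of 11 tested with a rise at IM24h and 12 of 12 at IM72h, and 11 of 12 rose between these times, with a median log2 step of 2.60. *Birc5*, the survivin subunit of the chromosomal passenger complex, had 2.41, 1.66 and 2.16 CPM in naïve libraries, 5.62, 5.63 and 7.51 at IM3h, 7.44, 2.20, 1.45 and 7.13 at IM24h, then 96.8, 89.9, 69.3 and 58.2 at IM72h. The IM24h libraries overlapped the naïve ones and those of IM72h stood apart from all others. Its log2 change was 1.63 at IM3h (SE 0.33, edgeR adjusted p = 0.00431), 1.10 at IM24h (adjusted p = 0.232) and 5.10 at IM72h (SE 0.25, adjusted p = 2.94e-07), and 4.03 from IM24h to IM72h (SE 0.45, adjusted p = 9.94e-05). *Plk1*, the Polo kinase of mitotic entry, took the largest step of any member, 4.39 (SE 0.50, edgeR adjusted p = 0.000116), from 2.54, 0.200, 5.26 and 3.51 CPM to 71.7, 76.6, 58.9 and 51.2.

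*Ccnb2*, a mitotic cyclin, had at most 3 counts in each naïve library (0.361, 0.623 and 0.120 CPM) and reached 4.43, 2.003, 5.53 and 7.13 CPM at IM24h and 25.1, 19.999, 17.6 and 22.5 at IM72h. Against a floor of 3 counts per library its log2 change was at least 3.37 at IM24h and at least 5.57 at IM72h. *Bub1*, a spindle checkpoint kinase, and *Aurkb*, the kinase of the passenger complex, were at this floor in naïve mice too, and rose by at least 3.71 and 3.35 at IM72h. *Aurkb* was the only gene of its group with no call from IM24h to IM72h, at 5.18, 0.100, 2.18 and 6.56 against 4.30, 6.27, 2.66 and 5.05 CPM. Library 2 of IM24h was the lowest of its group for *Aurkb*, *Plk1* and *Hmmr* and in the summed mitosis level, and without it 29 members were called at IM24h in place of 25. Without naïve library 3 the count was 16.

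Of the spindle and chromosome genes 5 of 11 had risen at IM24h and 10 of 11 at IM72h, and 10 of 11 rose from IM24h to IM72h with a median log2 step of 2.18. *Top2a*, which untangles sister chromatids, was the member of this group with the smallest p at IM24h. It had 8.06, 4.78 and 4.80 CPM in naïve libraries, 11.1, 6.3505 and 8.94 at IM3h, 37.2, 23.2, 32.9 and 49.5 at IM24h, then 134, 124, 105 and 121 at IM72h. Each of the last 2 groups lay above the one before it without overlap, with log2 changes of 2.57 (SE 0.32, edgeR adjusted p = 0.000385) and 4.24 (SE 0.20, adjusted p = 2.66e-07) against naïve mice. *Mki67*, the proliferation marker Ki-67, had 4.21, 2.28 and 4.20 CPM in naïve libraries, 7.26, 6.93 and 7.35 at IM3h, 7.91, 5.11, 10.9 and 7.81 at IM24h, then 70.5, 75.4, 58.2 and 49.1 at IM72h. Its libraries at IM3h and IM24h overlapped each other and lay above the naïve ones, and those of IM72h were far higher than all. The log2 change was 1.05 at IM3h (SE 0.31, edgeR adjusted p = 0.0244), a call kept in 0 of 6 fits without a library, 1.11 at IM24h (SE 0.40, adjusted p = 0.0577) and 3.99 at IM72h (SE 0.23, adjusted p = 5.21e-07).

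*Prc1*, which bundles the central spindle, went from 2.89, 1.25 and 2.52 CPM in naïve libraries to 20.5, 9.42, 14.7 and 12.7 at IM24h and 78.4, 70.7, 61.4 and 66.0 at IM72h, where its log2 change of 4.78 (SE 0.21, edgeR adjusted p = 2.11e-07) had the smallest p of all members. *Kif20a*, a kinesin of cytokinesis, was the mitosis gene without a call at IM72h. It stood at 22.6, 6.44 and 22.6 CPM in naïve libraries and at 16.0, 17.4, 16.7 and 23.5 at IM72h (log2 change -0.03, edgeR adjusted p = 0.935).

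**Figure D3:**
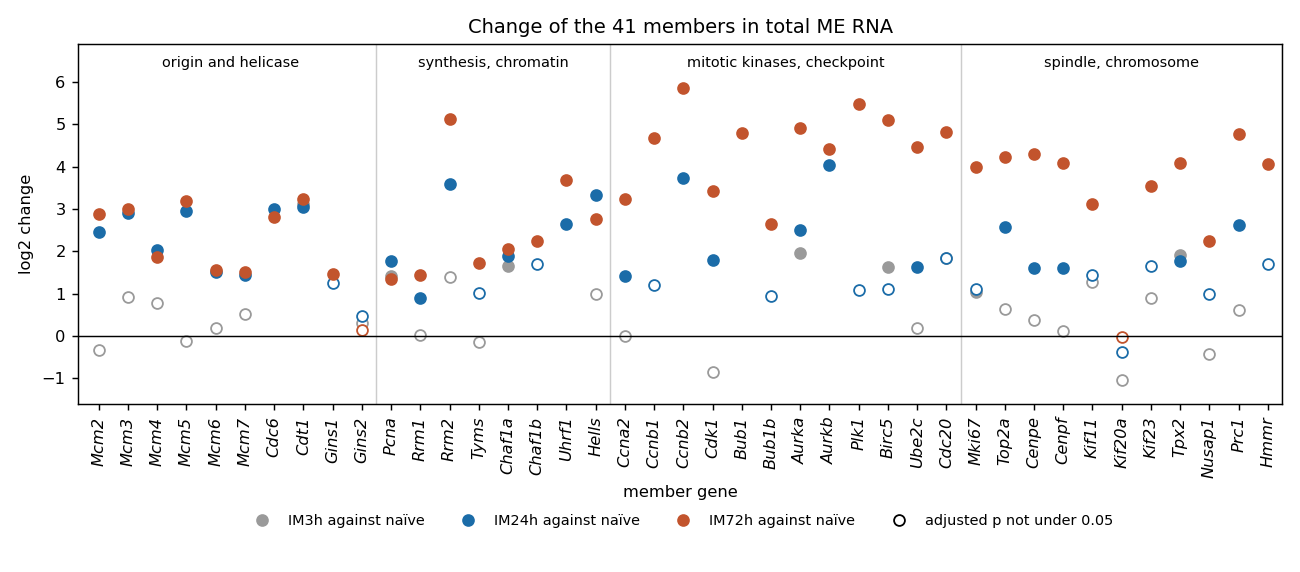
Log2 change against naïve mice (y axis) of each of the 41 members (x axis, by role) in total *ME* RNA at IM3h, IM24h and IM72h, filled where the edgeR adjusted p is under 0.05, and absent where a gene was not tested. Changes of *Ccnb2*, *Bub1* and *Aurkb* are fitted against naïve counts of 3 or fewer and are no bound. Blue and orange points lie together for most origin and helicase genes, and the orange ones stand above for most mitosis genes.

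At IM3h the *ME* showed a smaller and mixed set of changes, with 8 of 30 tested members higher and 0 lower against 19.3% and 13.4% of 15333 genes. The study's rule gave 9 higher and 1 lower, *Kif20a*, against 11.3% and 7.14%. The 8 were *Cdt1*, *Pcna*, *Chaf1a*, *Birc5* and *Mki67* above and *Aurka*, *Cdc20* and *Tpx2*, with log2 changes of 1.96, 1.84 and 1.93. *Tpx2*, which activates Aurora A on the spindle, went from 2.04, 0.415 and 2.52 CPM to 7.40, 5.63 and 6.07 without overlap (SE 0.47, edgeR adjusted p = 0.0109). No fit without a library kept all 8 calls. Between 4 and 7 members were called in them, with 4 without naïve library 3 and 5 without naïve library 1 or IM3h library 3. *Cdt1*, *Pcna*, *Birc5* and *Tpx2* kept their calls in 6 of 6 such fits, *Cdc20* in 3, *Aurka* and *Chaf1a* in 2 and *Mki67* in 0. The median log2 change was 0.65 over the 14 replication genes tested and 0.63 over the 16 mitosis genes, against 0.00 over all genes.

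Across the steps from naïve to IM24h and from IM24h to IM72h, 11 of 18 replication genes were called in the former step only, 3 in both, 0 in the latter only and 4 in neither. Of the 23 mitosis genes 1, *Aurkb*, was called in the former step only, 10 in both, 11 in the latter only and 1, *Kif20a*, in neither. Of the 16281 genes tested from IM24h to IM72h, 14.2% were called higher in the former step only, 1.42% in both, 17.2% in the latter only and 67.3% in neither. The 2 comparisons share the IM24h libraries, and the difference between the steps was not tested.

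Markers of leukocytes, glia, fibroblasts, epithelium, endothelium and other cell types differed over the same times in the *ME*. The summed level of 10 macrophage and monocyte markers was 171 to 199 CPM in naïve mice, 171 to 191 at IM3h, 487 to 1044 at IM24h and 678 to 773 at IM72h. At IM24h 7 of 10 had risen and at IM72h 10 of 10, against 15.6% and 29.3% of all genes. The 7 of 8 neutrophil markers listed in the table summed to 0.840 to 1.04, 24.1 to 33.1, 45.6 to 215 and 20.9 to 59.1 CPM, and *Ly6g* was not listed. The 6 fibroblast markers summed to 1776 to 1875 CPM in naïve mice, 875 to 1939 at IM24h and 3104 to 3596 at IM72h. The 8 glial markers summed to 120 to 146, 106 to 141 and 168 to 324, highest in every library of IM72h. *Sox10* had 155, 74 and 122 counts in naïve *ME* libraries and 172, 192 and 144 at IM3h. At IM24h it had 404, 272, 772 and 612 counts and at IM72h 891, 1353, 1846 and 512. The Cre line of these later groups differs from that of the earlier ones. The 9 epithelial markers summed to 122 to 372 CPM in naïve mice and 185 to 1138 at IM3h, with the highest value in library 1. They summed to 65.5 to 216 CPM at IM24h and 221 to 514 at IM72h, so that the last 2 groups did not overlap. From IM24h to IM72h 3 of 8 tested rose, against 18.6% of all genes. The 6 endothelial markers summed to 30.9 to 35.9 CPM in naïve mice, 46.3 to 55.7 at IM3h, 51.4 to 68.1 at IM24h and 66.0 to 84.9 at IM72h. At IM72h 4 of 6 had risen, against 29.3% of all genes. Mesothelial, neuronal and interstitial cell of Cajal markers, which are 5, 6 and 4, summed to 125 to 152, 454 to 475 and 353 to 370 CPM in naïve mice and to 41.4 to 102, 347 to 464 and 161 to 189 at IM72h. The 8 lymphocyte markers were low and summed to 3.48 to 4.36 CPM in naïve mice, 2.24 to 5.07 at IM3h and 2.60 to 7.25 at IM24h. At IM72h they summed to 7.31 to 9.56 CPM, above every other *ME* library. Smooth muscle markers, 6 in all, summed to 11999 to 13025 CPM in naïve mice, 1736 to 6563 at IM24h and 7061 to 13364 at IM72h. Their part in the member levels was not tested.

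In *RiboTag* RNA the members were fewer and less even. The tables list 39, 39 and 38 members at IM3h, IM24h and IM72h, *Aurkb* in none, and the number of the 41 with a count, unlisted ones taken as without, was 28 to 36 in naïve libraries, 32 to 37 at IM3h, 21 to 37 at IM24h, and 16 to 25 at IM72h, against 37 to 41 in the *ME*. At IM24h the low numbers, 27 and 21, belonged to libraries 2 and 3, with 1708622 and 1702478 counts outside AY036118.

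**Figure D4:**
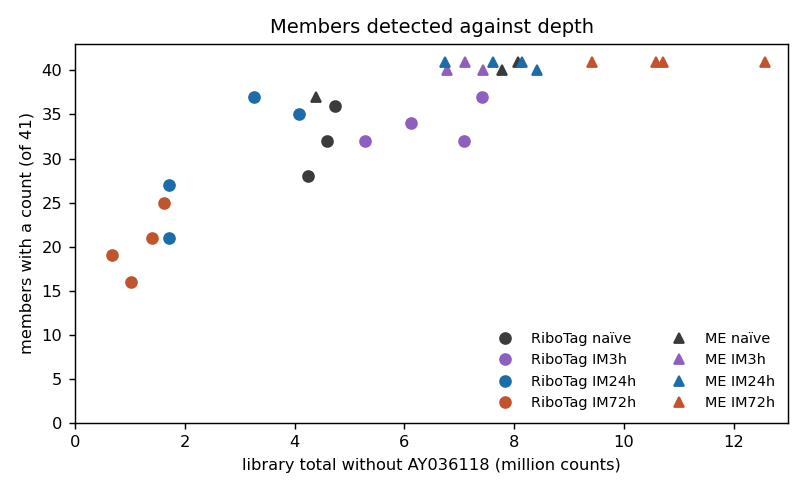
Number of the 41 members with a count (y axis) against the library total of counts without AY036118 (x axis) for each *RiboTag* (circles) and *ME* (triangles) library, coloured by group. The 4 *RiboTag* libraries of IM72h have the fewest counts, at most 1619377, and 16 to 25 members, a range that takes in the 21 of IM24h library 3.

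At IM3h 3 of 31 tested members had risen in *RiboTag* RNA and 0 had fallen, against 8.86% and 4.44% of 16053 genes. All 3 were replication genes, *Cdt1*, *Pcna* and *Gins2*. *Cdt1* had 2.67, 0.913 and 1.07 CPM in naïve libraries, 33.3, 29.4, 16.5 and 21.3 at IM3h, 3.38, 0, 0 and 4.38 at IM24h, then 0 in all 4 libraries of IM72h. The IM3h libraries stood far above all others, with a log2 change of 4.06 (SE 0.53, edgeR adjusted p = 0.000581) that held in 7 of 7 fits without a library. *Pcna* went from 10.04, 10.4 and 3.57 CPM to 29.7, 28.6, 24.5 and 17.3 at IM3h without overlap (log2 change 1.69, SE 0.44, edgeR adjusted p = 0.0254), and *Gins2*, a subunit of the helicase activator, from 9.15, 17.0 and 19.5 to 62.8, 39.2, 20.7 and 34.3 (1.41, SE 0.41, adjusted p = 0.0391). These 2 calls held in 3 of 7 and 2 of 7 such fits and were lost with library totals. In a single fit over all *RiboTag* groups 0 of the 3 passed, with *Cdt1* at a log2 change of 3.99 (edgeR adjusted p = 0.815).

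With the study's own rule of an unadjusted p under 0.05 and a change over 2-fold, *Mcm3* and *Mcm7* counted as higher too and *Ube2c* as lower at IM3h, 5 and 1 of 31 against 11.8% and 8.86% of all genes. *Ube2c*, the conjugating enzyme of the anaphase-promoting complex, had 8.90, 4.68 and 3.45 CPM in naïve libraries and 0.0785, 0, 1.18 and 0 at IM3h (log2 change -4.13, SE 1.48, edgeR adjusted p = 0.0894). No mitosis gene passed adjustment at IM3h: 18 were tested, with a median log2 change of 0.40 against -0.04 over all genes, and *Mki67* and *Top2a* gave -0.38 and -0.05, with overlapping libraries. *Prc1* had the smallest p among the spindle genes, with 0, 4.79 and 2.61 against 4.63, 6.004, 4.47 and 3.66 CPM, which overlap (adjusted p = 0.639).

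At IM24h 2 of 32 tested members had risen in *RiboTag* RNA, *Mcm3* and *Chaf1a*, and 0 had fallen, against 0.366% and 0.131% of 15304 genes. The study itself names *Mcm3* and *Chaf1a* among its most induced *RiboTag* genes at this time. Their calls here come from the same libraries and are no independent finding. *Mcm3* had 2.03, 4.11 and 1.43 CPM in naïve libraries, 2.20, 5.04, 11.2 and 13.8 at IM3h, 18.8, 48.2, 107 and 70.6 at IM24h, then 0.933, 46.9, 116 and 65.2 at IM72h. All 4 libraries of IM24h lay above the earlier ones, and at IM72h 3 did so while library 1 was below the naïve range. Its log2 change was 4.63 at IM24h (SE 0.76, edgeR adjusted p = 0.0206) and 4.59 at IM72h (SE 1.55, adjusted p = 0.0784). *Chaf1a* had 3.43, 4.22 and 2.85 CPM in naïve libraries, 1.33, 3.20, 1.06 and 15.8 at IM3h, 6.63, 157, 153 and 91.8 at IM24h, then 114, 45.1, 32.3 and 101 at IM72h. Every library of IM24h and IM72h lay above the naïve ones, and library 1 of IM24h, which had the most *Sox10* of its group, was the lowest of them. The log2 change was 4.89 at IM24h (SE 0.89, edgeR adjusted p = 0.0324) and 4.42 at IM72h (SE 1.02, adjusted p = 0.0183).

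Both calls at IM24h depended on the fit. With library totals the adjusted p in edgeR was 0.221 for *Mcm3* and 0.216 for *Chaf1a*, and in the single fit over all groups 0.180 and 0.102. *Mcm3* kept its call in 2 of 7 and *Chaf1a* in 1 of 7 fits without a library. With libraries 2 and 3, those low in *Sox10*, left out together, *Mcm3* gave a log2 change of 4.17 (edgeR adjusted p = 0.0351) and *Chaf1a* 3.83 (adjusted p = 0.0722). By transcript, *Chaf1a*-202 held 58.4% of the summed counts of the gene in naïve libraries, 55.5% at IM24h and 92.7% at IM72h. At IM3h, where library 4 had 168 counts of the gene and the other 3 had 17, 33 and 9, it held 0.088% and *Chaf1a*-201 80.2%. Of *Mcm3* counts *Mcm3*-201 held 60.4% in naïve mice and 94.8%, 79.2% and 74.2% at the 3 times. These shares rest on the authors' split of reads between transcripts and were not tested.

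By the study's rule 6 of 32 members were higher and 0 lower at IM24h, against 6.62% and 5.85% of all genes, adding *Mcm7*, *Cdc6*, *Top2a* and *Prc1*. For 8 of 32 every IM24h library lay above every naïve one, against 6.97% of all genes. *Top2a* had 16.5, 9.24 and 14.7 CPM in naïve libraries and 23.3, 110, 33.5 and 154 at IM24h, all above the naïve range, with a log2 change of 2.64 (SE 0.68, edgeR adjusted p = 0.103). *Bub1b*, a checkpoint kinase-like protein, had the smallest p of its group, with 0, 0.114 and 1.55 against 0, 10.05, 9.99 and 18.5 CPM, which overlap (adjusted p = 0.430). *Pcna*, at 21.3, 18.5, 19.6 and 14.7 CPM, stayed above its naïve libraries without passing the test (log2 change 1.26, SE 0.83, adjusted p = 0.599). *Mki67* had 9.13, 14.9, 0 and 11.2 CPM at IM24h and 21.0, 84.6, 41.5 and 0.603 at IM72h, from 5.72, 4.68 and 3.57, and passed at neither time (adjusted p = 0.843 and 0.325 in edgeR).

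At IM72h 4 of 27 tested members had risen in *RiboTag* RNA and 2 had fallen, against 1.05% and 15.1% of 13572 genes. The rises were those of *Chaf1a*, *Top2a*, *Cenpf* and *Nusap1*. The study's rule gave 6 higher and 2 lower, against 3.1% and 19.4%. In fits without a library the call held in 5 of 7 for *Nusap1*, 4 of 7 for *Chaf1a* and *Top2a* and 2 of 7 for *Cenpf*. Without naïve library 1 a single member was called, with library totals 3 of the 6 calls were kept, and with no filter on low counts 0 were. *Nusap1*, which binds spindle microtubules, had 57.9, 42.1, 54.4 and 47.1 CPM at IM72h, where all 4 libraries lay close together, and at most 6.85 CPM in any other *RiboTag* library. Its naïve libraries had 0, 0 and 4 counts in the table of this comparison, so the fitted log2 change of 8.16 (SE 1.84, edgeR adjusted p = 0.0169) rests on almost no naïve counts. *Top2a* had 101, 200, 52.6 and 82.6 CPM (log2 change 3.04, SE 0.78, edgeR adjusted p = 0.0284) and *Cenpf*, a kinetochore protein, 197, 182, 53.5 and 23.5 CPM against 6.74, 1.60 and 11.9 in naïve mice (4.11, SE 1.11, adjusted p = 0.0332). Both lay above their naïve libraries without overlap.

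The falls were those of *Mcm6*, a helicase subunit, and *Gins2*, each at the floor of 3 counts in every IM72h library. *Mcm6* had 0, 0.434, 0 and 0 CPM against 6.87, 6.62 and 6.18 in naïve libraries, and *Gins2* had 0 in all 4. Against the floor their log2 changes were -1.86 and -3.08 or lower (edgeR adjusted p = 0.0152 and 0.0361), and the calls held in 7 of 7 and 4 of 7 fits without a library. *Cdt1*, *Gins1*, *Uhrf1* and *Plk1* were at 0 in all 4 libraries as well, with too few naïve counts to be tested. *Bub1b* had 44.3, 19.5, 0 and 28.96 CPM and did not pass (adjusted p = 0.229). Many members were at 0 in some libraries and high in others, such as *Rrm1* at 0, 134, 19.4 and 43.4 CPM and *Tyms* at 98.0, 51.2, 0 and 0.

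**Figure D5:**
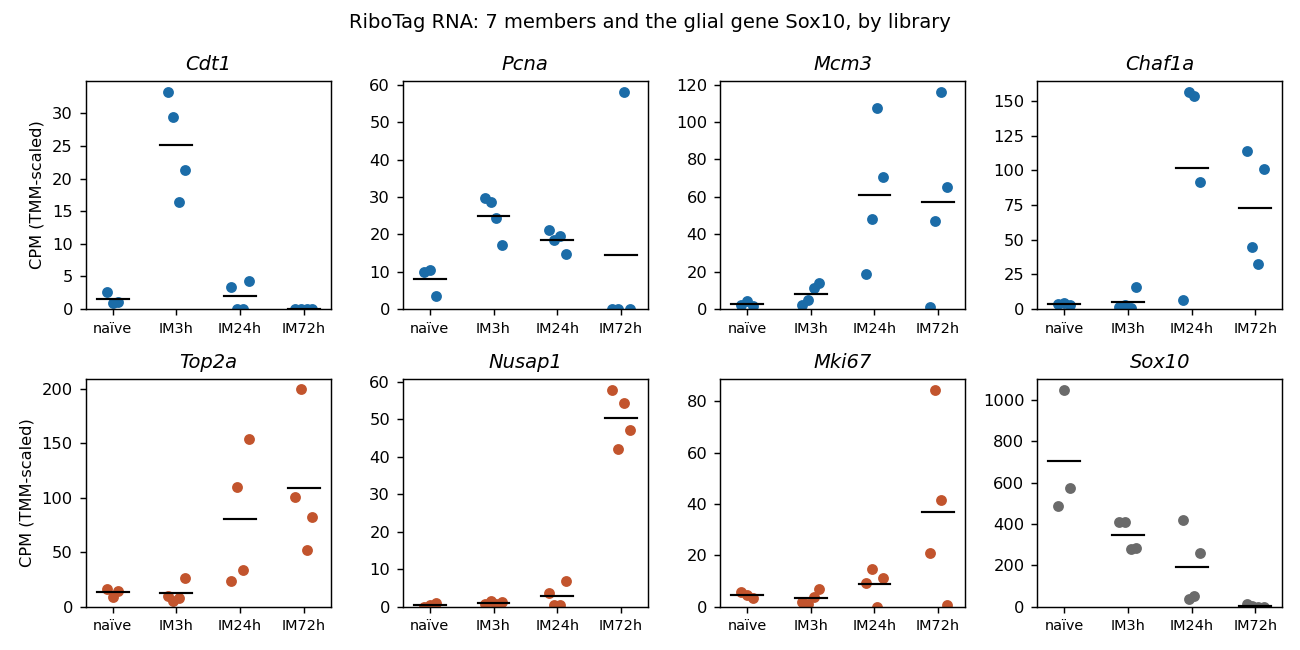
TMM-scaled CPM (y axis, one scale per panel) in each *RiboTag* library of the 4 groups (x axis) for 4 replication members (blue), 3 mitosis members (orange) and the glial gene *Sox10* (grey), with bars at group means. *Cdt1* is high at IM3h alone, *Chaf1a* from IM24h on and *Nusap1* at IM72h, where *Sox10* is at 0 to 11.7 CPM. *Mcm3* is high at IM24h, and its IM72h libraries range from below the naïve values to far above them.

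Between IM24h and IM72h 0 of 24 tested *RiboTag* members were called in edgeR, where 0% of 9344 genes passed in either direction, and 3 members had an unadjusted p under 0.05 (*Cenpf*, *Nusap1* and *Mcm7*), against 6.31% of all genes, while DESeq2 called 1. By the study's rule 2 were higher and 1 lower, against 1.47% and 4.81%, and in 3 every IM72h library lay above and in 1 below every IM24h one, against 1.12% and 7.66%. The summed replication level was 208 to 450 CPM at IM24h and 285 to 341 at IM72h, the summed mitosis level 93.9 to 311 and 327 to 856. The ratio of the sums was 0.493 to 0.950 in naïve mice, 0.290 to 0.626 at IM3h, 0.209 to 0.812 at IM24h and 0.981 to 2.75 at IM72h. The IM72h libraries lay above the others, but narrowly, with 0.981 as the lowest against 0.950 in a naïve library. In the *ME* the lowest at IM72h was 2.29, against at most 0.868 elsewhere. In the *RiboTag* libraries of IM72h 7 to 9 of the 18 replication members had a count, so this ratio rests on few genes. Macrophage and monocyte markers summed to 81.7 to 135 CPM in naïve *RiboTag* libraries, 60.2 to 107 at IM3h, 139 to 345 at IM24h and 243 to 366 at IM72h. Of these 10 markers *Cd68* and *Ly6c2* were not listed in the table of IM72h and *Fcgr1* was at 0 in its 4 libraries. *Itgam* was the 1 that had risen, and it had done so at every time after IM. Of all genes 8.86%, 0.366% and 1.05% rose at IM3h, IM24h and IM72h. Neutrophil markers summed to 1.26 to 3.18 CPM in naïve libraries and to 10.3 to 70.0 at IM72h, where *Cxcr2* was at 0 in every library and *S100a8*, *Ly6g* and *Ngp* were not listed. Epithelial markers summed to 73.2 to 119.3 CPM in naïve libraries, 29.3 to 76.7 at IM24h and 15.1 to 128 at IM72h. Fibroblast markers summed to 455 to 548, 143 to 399 and 245 to 992 CPM in these groups. Smooth muscle markers summed to 3261 to 5007 CPM in naïve *RiboTag* libraries, 804 to 1872 at IM24h and 1648 to 5897 at IM72h. At IM24h 3 of 6 had fallen, against 0.131% of all genes. Neuronal markers summed to 501 to 1006, 375 to 786 and 133 to 421 CPM in these groups, and those of interstitial cells of Cajal to 162 to 228, 46.9 to 153 and 4.67 to 154. Mesothelial markers summed to 111 to 288 CPM in naïve libraries, 10.9 to 73.5 at IM3h, 0 to 109 at IM24h and 0 to 52.9 at IM72h. At IM3h 4 of 5 had fallen and at IM72h 2 of 5, against 4.44% and 15.1% of all genes. At IM24h the sums of glial, smooth muscle, fibroblast, mesothelial and interstitial cell of Cajal markers lay below every naïve value. At IM72h those of glial, neuronal, mesothelial and interstitial cell of Cajal markers did. Endothelial markers summed to 17.3 to 38.3, 37.2 to 78.2 and 0 to 67.2 CPM, and lymphocyte markers to 1.14 to 2.38, 0 to 16.1 and 0 to 21.2. Their part in the member levels was not tested.

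The change in *RiboTag* RNA was set against that in the *ME* by an interaction of fraction and treatment. *ME* RNA was taken from the lysate before precipitation, so at IM24h and IM72h both fractions may come from the same animals, and the test treated all libraries as independent. The Cre line differed between the fractions in the naïve and IM3h groups alone. At IM3h 0 of 37 and at IM24h 0 of 38 members differed between the fractions in edgeR, where 0.959% and 0.274% of 17617 and 17508 genes had a more positive change in *RiboTag* RNA and 0.698% and 0.263% a more negative one. At an unadjusted p under 0.05 there were 2 members at each time, fewer by share than the 14.7% and 13.5% of all genes, and DESeq2 called 0 at both. *Cdt1* at IM3h gave a difference of 1.03 (SE 0.58, adjusted p = 0.453). At IM24h *Chaf1a* and *Mcm3* gave the smallest p, with differences of 3.04 (SE 1.05, adjusted p = 0.202) and 1.75 (SE 0.79, adjusted p = 0.348). A p over the threshold does not show that the fractions changed alike.

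At IM72h 1 of 38 members, *Nusap1*, had the more positive change in *RiboTag* RNA (edgeR adjusted p = 0.00389) and 7 the more negative one, against 2.15% and 21.1% of 16527 genes. The 7 were *Mcm6*, *Mcm7*, *Cdt1*, *Gins2*, *Uhrf1*, *Ccnb2* and *Plk1*, with adjusted p between 0.000540 and 0.0429. All but *Gins2* had risen in the *ME*, and in *RiboTag* RNA all 7 were at 0 to 8.30 CPM at IM72h. The number of members that differed was 16 without *RiboTag* IM72h library 2 and 13 with library totals, and 6 to 11 without any other library. *Mcm7* and *Ccnb2* were called in 5 and 6 of 14 fits without a library and the other 6 members in 14. The median difference over all genes was -0.98, and over the 38 members -1.72.

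Other cell-cycle genes were taken from lists of the same roles. Of 22 further replication genes 7 had risen in the *ME* at IM24h and 17 of 21 tested at IM72h with 0 lower, where 15.6% and 29.3% of all genes had risen. From IM24h to IM72h 8 of 21 rose and 2 fell, against 18.6% and 19.9% of all genes. *Gmnn*, the inhibitor of CDT1, and the flap nuclease *Fen1* rose by 2.57 and 1.98 at IM24h, and *Mcm10* and *Tk1* by 3.63 and 2.70 at IM72h. Of 22 further mitosis genes 9 of 18 tested had risen at IM24h and 22 of 22 at IM72h with 0 lower, and 18 of 22 rose between these times, against the same 15.6%, 29.3% and 18.6%. *Nuf2* and *Cenpa*, both of the centromere, gave 2.88 and 2.65 at IM24h, and *Cep55*, of abscission, 5.91 at IM72h.

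Some regulators of cycle entry were called at IM3h. *Myc*, a transcription factor of growth and cycle entry, rose by 4.07 in the *ME* (SE 0.45, edgeR adjusted p = 9.63e-05) and by 5.98 in *RiboTag* RNA (SE 0.82, adjusted p = 0.000734) at IM3h, and the inhibitor *Cdkn1a* by 3.90 and 2.64. Of the 9 G1 cyclins, their kinases and *Cdc25a*, 5 rose and 0 fell in the *ME* at IM3h, against 19.3% and 13.4% of all genes, with *Ccne1* at 2.45. In *RiboTag* RNA 2 of 9 rose, *Ccnd1* by 2.32 and *Cdc25a* by 1.37, and *Ccnd3* fell by 1.13, against 8.86% and 4.44%. Of the 9 inhibitors and pocket proteins 3 rose and 3 fell in the *ME* at that time, and 1 of 8 tested rose in *RiboTag* RNA. *Dnmt1*, the maintenance DNA methyltransferase, was the 1 gene of the further replication list that rose in *RiboTag* RNA at IM3h (2.30, adjusted p = 0.0142). Of 11 cell-cycle transcription factors 4 rose at IM24h in the *ME*, with *E2f1* at 1.46, and 6 at IM72h, with *Foxm1*, *E2f8* and *E2f7* at 4.12, 3.72 and 3.47, against 15.6% and 29.3% of all genes. From IM24h to IM72h *Foxm1*, *E2f7* and *Mybl2* rose by a further 2.44, 2.16 and 2.04. *Rbl2*, a pocket protein that represses these genes in resting cells, fell by 3.12 at IM72h. In *RiboTag* RNA at IM24h 0 genes of these 5 lists passed in edgeR, and an unadjusted p under 0.05 was found for 5 of 16 further replication, 1 of 13 further mitosis and 2 of 8 G1 genes tested, against 13.2% of all genes.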

How the data were processed

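RNA of the small bowel muscularis externa was sequenced by the authors as 3′ end single-end libraries (QuantSeq), trimmed with cutadapt, aligned to mm10 with STAR in Partek and quantified on Ensembl transcripts, per the labels and the study's methods. The deposited values are estimated counts per gene and, for *RiboTag*, per transcript, with features totalling 10 or more listed. Transcript counts were summed per gene and rounded. Where the *RiboTag* tables of the 3 times were set on 1 scale, a gene absent from a table was entered as 0 in its libraries, although its total there may have been above 0, and a naïve library took the highest of its values in the 3 tables. The 5 count tables were used, and 4 further tables, which hold the authors' own p-values, ratios and group means, were not used. Library names match groups in the labels but no single sample, so libraries were numbered within each group by sorted name and never paired. *RiboTag* fits compare each time with the naïve libraries in its own table.

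Counts were scaled by TMM and low genes removed with filterByExpr, and edgeR 4.0.16 (R 4.3.3, limma 3.58.1) fitted the quasi-likelihood test on the groups compared, with Benjamini-Hochberg adjustment over all genes tested and a threshold of 0.05. Differences between fractions were interaction terms. The study's rule, an unadjusted p under 0.05 and over 2-fold change, was the other call. A group with at most 3 counts in each library was set at that floor and its change given as a bound, which covers counting error only. Levels are TMM-scaled CPM. The edgeR fit was checked on simulated counts for *RiboTag* IM3h and *ME* IM24h against naïve, *ME* IM72h against IM24h and the interaction at IM24h. The other comparisons and DESeq2 were not checked in this way. Alternatives were DESeq2 1.42.0, its size factors, library totals alone, no filter, ribosomal RNA genes left out, 1 fit over all groups, the transcript table of the *ME* and each library left out, and, chosen after seeing the data, *RiboTag* IM24h libraries 2 and 3 left out.

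The members and lists were chosen with earlier results of these data known. Named in the text are *Mcm3*, *Chaf1a* and *Mki67*, though without a fitted value in some comparisons. The member with the smallest p in each of 4 role groups is named per comparison with naïve mice. Up to 3 genes of each further list with the largest called change are named too. Others named for their values were chosen after these were seen. *Kif20a* promoter sequence is not used here.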

Additional observations from a re-analysis of the deposited data

Results flagged for a closer look

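All 41 members and their 2 sums were examined in groups of 4 libraries where listed, and 33 of 208 groups held a value whose gap to the nearest other exceeded Dixon's critical value, where chance gives about 1 in 20. Of these, 32 were in *RiboTag* RNA, where many members were at or near 0 in the other libraries. At IM3h they were in library 4 *Chaf1a* at 15.8, *Ccnb2* at 14.1, *Cenpf* at 10.8, *Hmmr* at 8.82, *Chaf1b* at 8.26, *Cdk1* at 4.13 and *Cdc6* at 1.60 CPM, and in library 3 *Ube2c* at 1.18 CPM. At IM24h library 3 held *Tyms* at 46.1, *Prc1* at 31.3 and *Cdc6* at 29.5 CPM, library 4 *Rrm2* at 4.76, *Ccnb2* at 3.05, *Bub1* at 2.86 and *Gins1* at 1.90 CPM, library 2 *Hmmr* at 7.64 CPM and library 1 *Plk1* at 4.25 CPM. At IM72h library 4 held *Ube2c* at 100.1, *Ccnb1* at 73.6, *Chaf1b* at 39.8 and *Cdc20* at 33.2 CPM, library 2 *Tpx2* at 32.1, *Rrm2* at 18.7, *Aurka* at 18.7, *Kif11* at 13.4, *Mcm2* at 11.3 and *Mcm6* at 0.434 CPM, library 3 *Hells* at 72.8, *Pcna* at 58.1, *Kif20a* at 13.8 and *Mcm7* at 8.30 CPM and library 1 *Hmmr* at 19.6 CPM. In the *ME* the single such value was that of *Ube2c* at 52.0 CPM in IM72h library 1.

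The change at IM72h differed between *RiboTag* and *ME* RNA for 8 of 38 members by the interaction test in edgeR, 7 with the more negative change in *RiboTag* RNA and 1 with the more positive one, against 21.1% and 2.15% of all genes, so the former share is near that of all genes. The count of 8 was 16 without *RiboTag* IM72h library 2 and 13 with library totals. The adjusted p was 0.000664 for *Mcm6*, 0.0346 for *Mcm7*, 0.000668 for *Cdt1*, 0.000540 for *Gins2*, 0.000880 for *Uhrf1*, 0.0429 for *Ccnb2* and 0.00285 for *Plk1*, each with the lower change in *RiboTag* RNA, and 0.00389 for *Nusap1*, with the higher one. All 7 lower members had at most 8.30 CPM in any *RiboTag* library of IM72h, so their fitted differences are no bounds.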

How the results depend on the processing

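No paired analysis was possible because the library names carry no replicate numbers of the labels, although the fractions may share animals. In the *ME* each other setting apart from leaving out a library kept the count of members called within 1.5 times. In *RiboTag* RNA scaling by library totals alone gave 1, 0 and 3 calls at the successive times in place of 3, 2 and 6, and 13 in place of 8 for the interaction at IM72h; the median log2 change of all genes was -0.24, -0.96 and -2.13 at the 3 times under that scaling, in place of -0.04, -0.11 and -0.40. A single fit over all groups gave 0 at IM3h, 0 at IM24h and 3 from IM24h to IM72h. DESeq2 gave 4 at IM24h and 1 from IM24h to IM72h in place of 0, and no filter gave 0 at IM72h. Without IM24h libraries 2 and 3 there was 1 call at IM24h and 2 from IM24h to IM72h.

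Leaving out each library gave 1 to 3, 0 to 3 and 1 to 7 calls at the successive times and 0 to 0 from IM24h to IM72h in *RiboTag* RNA. In the *ME* it gave 4 to 7 (4 without naïve library 3), 16 to 29, 39 to 39 and 22 to 27, and for the interactions 0 to 1, 0 to 1 and 6 to 16 (6 without *ME* IM72h library 1, 16 without *RiboTag* IM72h library 2).

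Signs turned for values that passed no test. From IM24h to IM72h in *RiboTag* RNA *Mcm3* was -0.93 with library totals, -0.076 in the single fit and -0.65 to 0.46 without a library, and *Chaf1a* 0.66 without libraries 2 and 3. In the *ME* over the same step *Mcm3* was -0.12 to 0.24 and *Chaf1a* -0.085 to 0.39 without a library, and *Chaf1a* in *RiboTag* RNA at IM3h was -0.86 to 0.9999, the low value without library 4. For the interaction *Mcm3* was -0.079 at IM24h and -1.06 at IM72h with library totals, and *Mki67* at IM24h was 0.10 without libraries 2 and 3 and -0.46 to 0.28 without a library. The cause was not tested. Over all values of named members in these settings 324 kept direction and side of the threshold, 9 newly passed it, 20 no longer did and 6 turned, and without a library the numbers were 383, 7, 35 and 12.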
